A study of Homo sapiens with 4 samples.

Results

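CXCL8 and the other CXC chemokines that attract neutrophils were followed in U87 cells, an established human glioblastoma cell line grown in medium with 10% fetal bovine serum. The 6 genes, CXCL8, CXCL1, CXCL2, CXCL3, CXCL5 and CXCL6, were taken by symbol from 2 tables of RNA-seq expression values, and each was found in both tables, which together hold 57851 gene symbols. There was 1 library in each of 4 groups. The first table holds wild-type (WT) cells in hypoxia, which was 1% O2, and WT cells in normoxia. The second holds hypoxic cells that carry an shRNA against ALKBH5, called shALKBH5, and hypoxic cells labelled shScr, a scrambled shRNA. All cells were kept at 5% CO2. ALKBH5 removes the m6A methyl mark from RNA, and the series title names genes that hypoxia induces through ALKBH5 as its object. No normoxic shRNA library was analysed here. The promoter of the shRNA, the time in hypoxia and whether the shRNA cells were a clone or a pool are not given in the labels.

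Chemokines are small secreted proteins that direct the movement of white blood cells. Those described here carry the amino acid motif Glu-Leu-Arg before their CXC cysteines and act on the receptors CXCR1 and CXCR2, which neutrophils carry at high levels. CXCL8, also called interleukin-8, is a strong ligand of both receptors, and it is made by many glioblastomas. CXCL1, CXCL2 and CXCL3 are closely related growth-regulated chemokines that act mainly on CXCR2. CXCL5 is also mainly a CXCR2 ligand, and CXCL6 acts on both receptors. Their transcripts are short-lived, and NF-kB, often with AP-1 and C/EBP factors, drives their transcription.

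Values are FPKM as deposited, that is, fragments divided by gene length and by library size. The shALKBH5 library held 16780154 reads recovered from the FPKM values and the shScr library 17859370, while the WT depth could not be recovered. These totals are not the library sizes behind the deposited values. Over 1 kilobase, 1 read stood for 0.0631 FPKM with shALKBH5 and 0.0673 FPKM with shScr, although shALKBH5 had the lower total. Taking the totals as library sizes raises each log2 read ratio of shALKBH5 to shScr by 0.18. ALKBH5 itself stood at 113 FPKM in the shALKBH5 library and 186 FPKM in the shScr library, a log2 change of -0.71 with a counting interval from -0.77 to -0.67, which is short of 2-fold. In the WT table ALKBH5 was at 83.5 FPKM in hypoxia and 39.6 FPKM in normoxia. Of 6 mesenchymal glioblastoma markers, 5 or 6 reached 1 FPKM in each library, whereas of 5 astrocyte markers only SLC1A3 did, and GFAP lay between 0.04 and 0.229 FPKM. No neutrophil or myeloid marker of the 9 listed, 8 of them in the WT table, reached 1 FPKM in any library. Their summed level was 1.26 FPKM in WT hypoxia and 1.24 in WT normoxia, and 0.562 FPKM with shALKBH5 and 0.619 with shScr, with the neutrophil receptor gene FCGR3B listed at 0 in all 4.

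All 6 genes lie on the long arm of chromosome 4 (GRCh38). CXCL8 (ENSG00000169429, chr4:73740506-73743716), CXCL6 (ENSG00000124875, chr4:73836497-73849064) and CXCL1 (ENSG00000163739, chr4:73869393-73871242) are on the plus strand. CXCL5 (ENSG00000163735, chr4:73995642-73998779), CXCL3 (ENSG00000163734, chr4:74036589-74038807) and CXCL2 (ENSG00000081041, chr4:74097035-74099293) follow on the minus strand. The genes share promoter letters, which are shown here because the results contrast genes with a common NF-kB motif. The motif GGAATTTCC, searched on both strands from 250 bases before to 50 bases after the RefSeq start site on GRCh38.p14, was present 1 time in each of the 6 promoters. It was present in 0.461% of all 35116 promoters of that length. That share is for this exact sequence, and no other form of an NF-kB motif was searched. Each line gives 30 bases from the RefSeq promoter table, 5′ to 3′ on the gene's strand, with the motif in capitals. CXCL8 (chr4:73740468-73740497), CXCL1 (chr4:73869305-73869334) and CXCL6 (chr4:73836579-73836608) lie on the plus strand. CXCL2 (chr4:74099253-74099282), CXCL3 (chr4:74038748-74038777) and CXCL5 (chr4:73998748-73998777) lie on the minus strand. The CXCL2, CXCL5 and CXCL6 windows overlap an annotated UTR in GENCODE 29.
CXCL8: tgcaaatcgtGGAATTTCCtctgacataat
CXCL1: tggaactccgGGAATTTCCctggcccgggg
CXCL2: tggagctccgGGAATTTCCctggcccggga
CXCL3: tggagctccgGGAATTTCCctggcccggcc
CXCL5: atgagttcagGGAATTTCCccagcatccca
CXCL6: ctgagttcagGGAATTTCCccagcatccca
The windows fall into 3 kinds. CXCL1 and CXCL2 shared 28 of 30 bases, CXCL2 and CXCL3 also 28, and CXCL1 and CXCL3 27. CXCL5 and CXCL6 shared 29. CXCL8 shared between 14 and 17 bases with each of the others.

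The CXCL8 and CXCL1 promoters are given at greater length because these genes had the highest and the lowest change in hypoxia among the 6. In the CXCL8 stretch the capitals mark an AP-1 motif, TGACTCA, and after it the NF-kB motif. In the CXCL1 stretch they mark the NF-kB motif alone. Both stretches end before the first annotated transcript start, and their coordinates are chr4:73740319-73740505 and chr4:73869143-73869392 on the plus strand of GRCh38.p14.
CXCL8: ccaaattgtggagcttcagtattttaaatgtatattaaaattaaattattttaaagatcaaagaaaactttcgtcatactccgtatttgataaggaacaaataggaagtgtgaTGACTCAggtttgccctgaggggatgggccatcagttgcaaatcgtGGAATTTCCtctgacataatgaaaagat
CXCL1: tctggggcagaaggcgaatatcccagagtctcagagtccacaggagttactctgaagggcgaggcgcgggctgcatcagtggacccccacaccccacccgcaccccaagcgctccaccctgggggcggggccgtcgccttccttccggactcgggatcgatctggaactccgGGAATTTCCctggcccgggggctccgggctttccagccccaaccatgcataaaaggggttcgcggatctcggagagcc
On both strands, TGACTCA was found in the CXCL8 promoter and in none of the other 5, and in 4.95% of all promoters. The core of the hypoxia response element, ACGTG, was found in none of the 6 and in 21.4% of all promoters. No 2 of these motifs overlapped in the stretches shown. A match of letters is a description and does not show that a factor was bound.

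The transcripts also share AU-rich stretches, which are known to speed the decay of cytokine RNA. In the longest coding transcript of GENCODE 29, the pentamer ATTTA occurred 10 times in CXCL8, or 5.87 times per kilobase, against a median of 0.937 over 19669 genes. CXCL2 had 8.21 per kilobase, CXCL3 6.51, CXCL1 4.56, CXCL5 4.33 and CXCL6 3.49. All 6 genes lay above at least 95.8% of genes in this density. The densest 30 bases of CXCL8 and CXCL2 are shown with the pentamers in capitals, written as DNA.
CXCL8: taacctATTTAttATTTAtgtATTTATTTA
CXCL2: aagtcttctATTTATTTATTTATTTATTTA

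CXCL8 was the most abundant of the 6 in every library. It stood at 240.7 FPKM in WT hypoxia and 113 FPKM in WT normoxia, and at 124 FPKM with shALKBH5 and 281 FPKM with shScr. Among genes present in both tables and above 0, it ranked 329th of 15444 in WT hypoxia and 731st of 15390 in WT normoxia. In the other table it ranked 365th of 14537 with shALKBH5 and 173rd of 14292 with shScr. The rank does not depend on how a library was scaled, and CXCL8 stood higher in WT hypoxia than in WT normoxia, and lower with shALKBH5 than with shScr. In bulk RNA, more transcript per cell and more cells that make it cannot be told apart.

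CXCL2 was second in every library. Its level was 17.19 FPKM in WT hypoxia and 69.25 FPKM in WT normoxia, and 2.65 FPKM with shALKBH5 and 4.62 FPKM with shScr. CXCL1 stood at 1.16 FPKM in WT hypoxia and 10.45 FPKM in WT normoxia, and at 1.31 FPKM with shALKBH5 and 1.35 FPKM with shScr. In the WT table CXCL1 and CXCL2 were thus lower in the hypoxic library and CXCL8 was higher there. CXCL3 had 2.75 FPKM in WT hypoxia and 7.32 FPKM in WT normoxia, and 1.05 FPKM with shALKBH5 and 1.64 FPKM with shScr. CXCL5 lay near the limit of 1 FPKM, at 1.05 FPKM in WT hypoxia and 1.85 FPKM in WT normoxia, and at 0.845 FPKM with shALKBH5 and 0.424 FPKM with shScr. CXCL6 was listed at 0 in both WT libraries and had 1 read with shALKBH5 and 0 with shScr, where 0 reads allows up to 0.0925 FPKM. CXCL6 therefore gave no comparison.

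**Figure D1:**
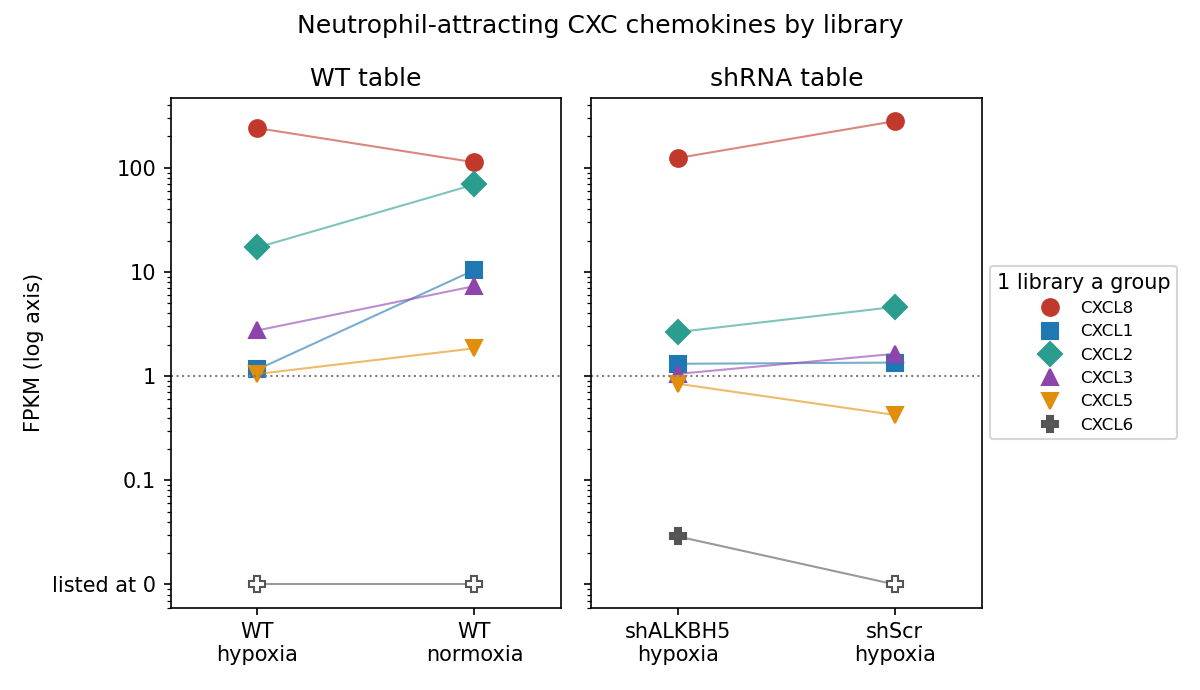
FPKM of each of the 6 chemokine genes (log axis) in each library, with WT hypoxia beside WT normoxia and shALKBH5 beside shScr. Each point is 1 library, open points are listed at 0, and the dotted line is 1 FPKM. CXCL8 is at 113 FPKM or more in all 4 libraries, and CXCL2 is the next in each.

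The first comparison asks how WT cells in hypoxia differ from WT cells in normoxia. They went in opposite directions. CXCL8 was 2.13-fold higher in hypoxia, while CXCL1 was 9.01-fold lower, CXCL2 4.03-fold lower and CXCL3 2.66-fold lower. CXCL5 was 1.76-fold lower on the plain FPKM scale and did not reach the 2-fold rule below.

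Changes were set as log2(FPKM + 1), which understates the change of scarce genes, and a gene counted as higher or lower at a difference of at least 2-fold, provided that the pair of libraries averaged 1 FPKM or more. With 1 library in each group there is no replicate check and no p-value. Of the 6 genes, 5 passed the filter, of which 1 was higher in hypoxia and 3 were lower, where 7.41% of 11050 genes were higher and 14.7% lower. Over all genes these shares became 11.9% and 5.73% when centred on the median gene. They were 7.23% and 20.3% of 11864 genes when rescaled to TPM, transcript shares that sum alike in each library. More genes passed the filter on that scale. The log2 change was 1.08 for CXCL8, -2.41 for CXCL1, -1.95 for CXCL2, -1.15 for CXCL3 and -0.48 for CXCL5. The median gene was at -0.35. CXCL8 lay above 93.3% of genes, whereas only 0.244% of genes lay below CXCL1 and 1.16% below CXCL2. The calls of CXCL1 and CXCL2 held when the values were centred on the median gene and under TPM. CXCL8 was at 0.98 under TPM, just under the rule, and CXCL3 at -0.80 when centred, so the split of 1 higher and 3 lower became 0 and 3 under TPM and 1 and 2 when centred.

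**Figure D2:**
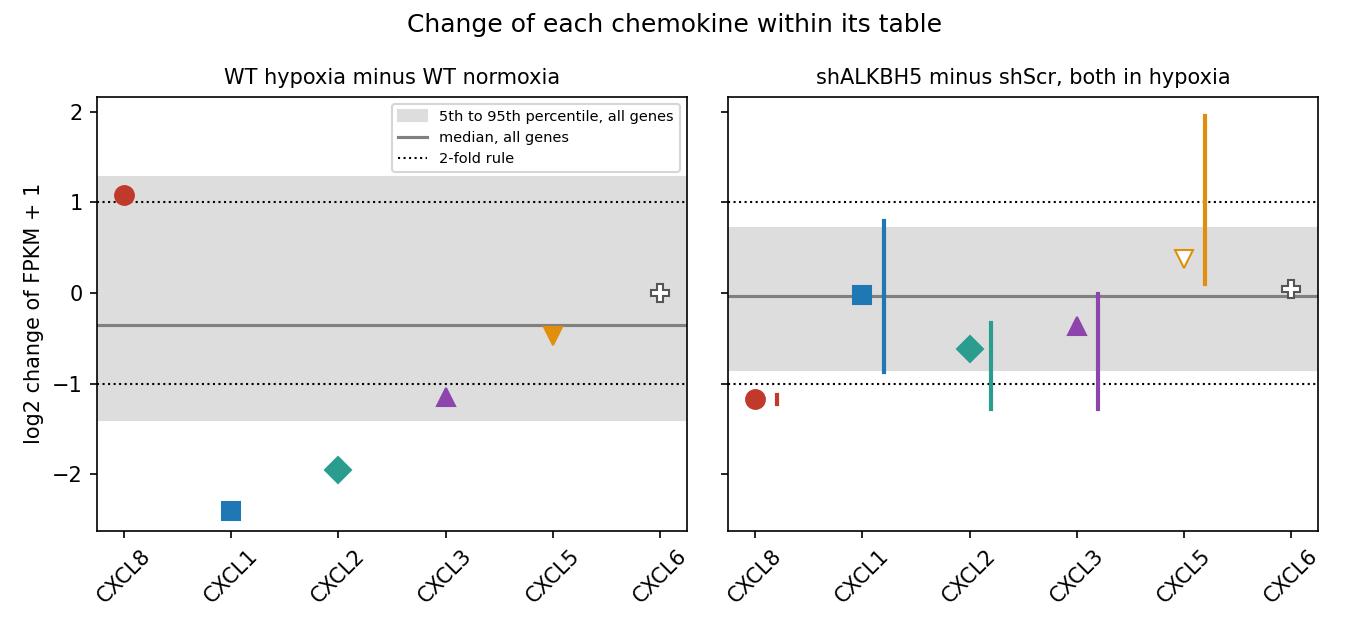
Log2 change of FPKM + 1 for each gene, in WT hypoxia minus WT normoxia (left) and shALKBH5 minus shScr (right). Filled points passed the filter of 1 FPKM and open points did not, the grey band spans the 5th to 95th percentile of all genes past the filter, and the vertical bars are 95% counting intervals of the read ratio. CXCL1 at -2.41 and CXCL2 at -1.95 lie below the band in hypoxia, and CXCL8 at -1.17 lies below it with shALKBH5.

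The contrast between CXCL8 and its relatives does not depend on the scaling between libraries, since it can be read within each library. CXCL8 made up 91.6% of the summed FPKM of the 6 genes in WT hypoxia and 56.0% in WT normoxia. The ratio of CXCL8 to CXCL2 was 14.002 in WT hypoxia and 1.63 in WT normoxia, so in normoxia the pair stood within a factor of 2 of each other. The ratio of CXCL8 to CXCL1 was 207.5 in WT hypoxia and 10.8 in WT normoxia. The ratio to CXCL2 was thus 8.58-fold higher in hypoxia, that to CXCL1 19.2-fold, that to CXCL3 5.67-fold and that to CXCL5 3.75-fold.

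Reads from CXCL1, CXCL2 and CXCL3 could be exchanged to a small extent. Of all stretches of 50 bases in their longest coding transcripts, 5.73% in CXCL1, 9.24% in CXCL2 and 5.26% in CXCL3 also occurred in another of the 6, and none of 100 bases did. No stretch of 50 bases in CXCL8, CXCL5 or CXCL6 was shared. Neither the read length nor the treatment of reads with several matches is given.

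The second comparison asks how the chemokines differ with ALKBH5 knockdown in hypoxia. CXCL8 was 2.26-fold lower with shALKBH5, from 4480 reads with shALKBH5 and 9486 with shScr. CXCL2 and CXCL3 had lower levels by smaller amounts and few reads, and CXCL1 had nearly the same level in both libraries. CXCL5 had more reads with shALKBH5, but it was too scarce to pass the filter.

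Of the 4 genes past the filter, CXCL8, CXCL1, CXCL2 and CXCL3, 1 was at least 2-fold lower and 0 were at least 2-fold higher, where 3.0% of 10925 genes were lower and 1.76% higher. The shares lower and higher became 2.88% and 8.39% of 14344 genes under TPM and 1.71% and 2.71% of 10556 with total reads. The filter passed a different number of genes on each scale, so these shares are not over the same genes. The log2 change of CXCL8 was -1.17, and 1.79% of genes lay below it. The 95% exact (Clopper-Pearson) interval of its read ratio, set on the FPKM scale, ran from -1.23 to -1.12. Such intervals compare these 2 libraries and cover counting error only. The scale decides whether CXCL8 passes the rule. It was at -1.13 when centred, but at -0.91 under TPM and at -0.99 with the sum of recovered reads as the library size, and the count lower was then 0.

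CXCL2 had 63 reads with shALKBH5 and 103 with shScr, and its interval from -1.28 to -0.34 lay below 0. CXCL3 had 37 reads with shALKBH5 and 54 with shScr, with an interval from -1.28 to -0.01 on the deposited scale. With total reads this interval moves up by 0.18 and under TPM by 0.26, so its upper end then lies above 0. CXCL1 had 27 reads with shALKBH5 and 26 with shScr. Its interval ran from -0.87 to 0.80, so the depth leaves both directions possible within those bounds. Its log2 change of -0.02 turned to 0.02 when centred, 0.18 under TPM and 0.08 with total reads. CXCL5 had 34 reads with shALKBH5 and 16 with shScr, and the interval lay above 0, from 0.10 to 1.95.

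CXCL8 made up 95.5% of the summed FPKM of the 6 genes with shALKBH5 and 97.2% with shScr. The ratio of CXCL8 to CXCL2 was 46.9 with shALKBH5 and 60.8 with shScr, a log2 difference of -0.37 with an exact conditional 95% interval from -0.84 to 0.11. For CXCL3 the log2 difference of the ratio was -0.54, with an interval from -1.17 to 0.11. A fall of CXCL8 beyond that of CXCL2 or CXCL3 was therefore not detectable at this depth. The ratio of CXCL8 to CXCL1 was lower with shALKBH5 by a log2 difference of -1.14 (interval -1.97 to -0.30), and the ratio to CXCL5 by -2.17 (interval -3.13 to -1.27). Both of these intervals lay below 0.

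**Figure D3:**
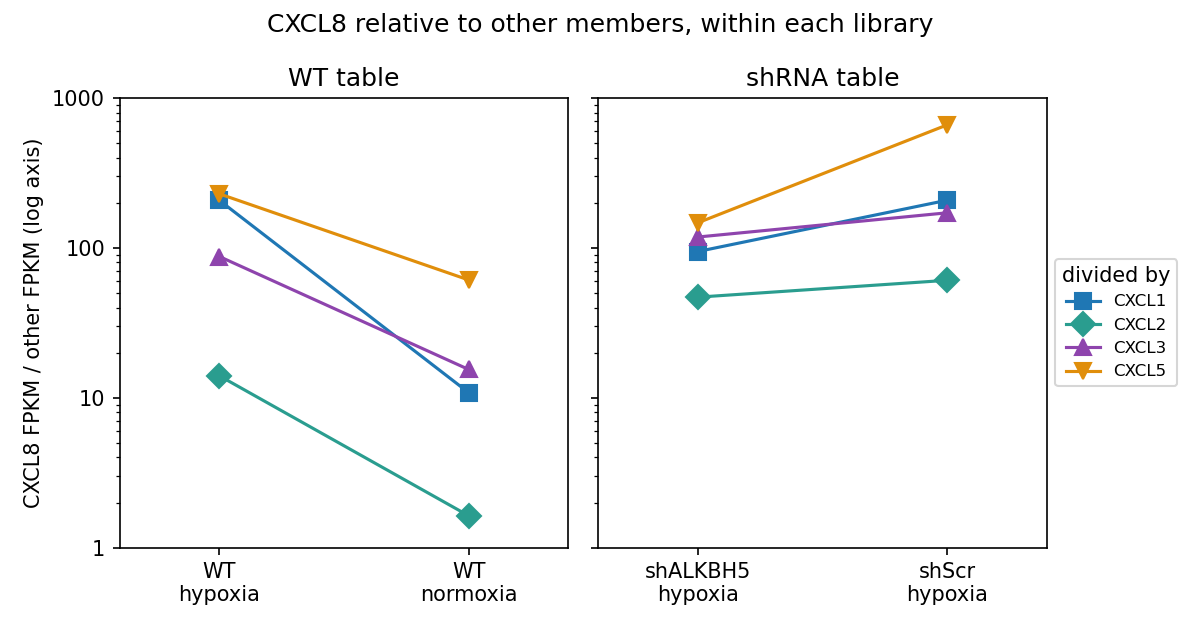
Ratio of the CXCL8 FPKM to that of CXCL1, CXCL2, CXCL3 and CXCL5 within each library (log axis), with WT hypoxia beside WT normoxia and shALKBH5 beside shScr. Each point is 1 library. All 4 ratios are higher in WT hypoxia than in WT normoxia, and the ratio to CXCL2 differs little between shALKBH5 (46.9) and shScr (60.8).

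Set side by side across tables treated as normalised separately, the 2 hypoxic libraries without the ALKBH5 shRNA gave CXCL2 different ranks. CXCL2 ranked 3792nd in WT hypoxia and 5725th with shScr, and CXCL8 made up 91.6% of the summed FPKM in WT hypoxia and 97.2% with shScr. In WT normoxia CXCL2 ranked 1243rd.

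The 6 genes whose 2 log2 changes lay nearest to those of CXCL8 were found among 5249 genes with a mean of at least 5 FPKM in both tables. They were ALDH18A1, at a distance of 0.00948, then S100A3 (0.141), EPOP (0.158), FAM210A (0.207), DNAJB2 (0.235) and ETS2 (0.280). ALDH18A1, an enzyme of proline synthesis, changed by 1.09 (log2) in hypoxia and by -1.18 with the ALKBH5 shRNA. S100A3, a calcium-binding protein gene, had changes of 0.94 and -1.16 in the same order of comparisons. No other CXC chemokine reached that mean in the shRNA table, so none could enter this search. The likeness rests on 2 differences between single libraries.

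**Figure D4:**
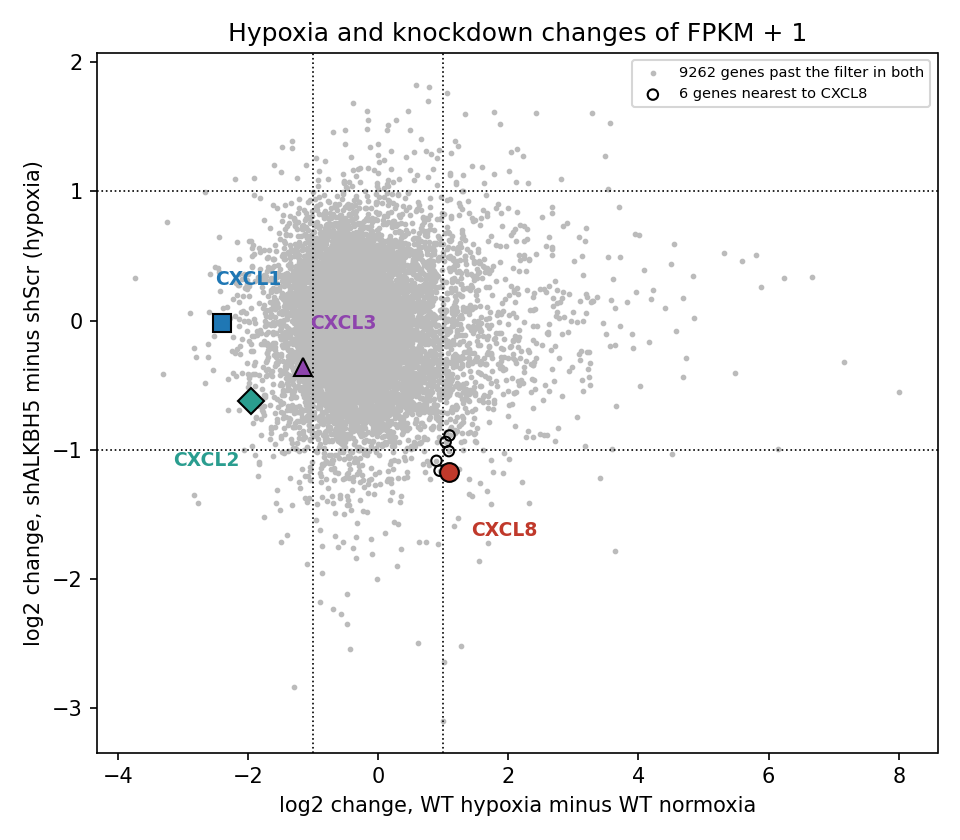
Log2 change of FPKM + 1 in WT hypoxia minus WT normoxia (horizontal) against that in shALKBH5 minus shScr (vertical), for 9262 genes past the filter in both tables. Coloured points are the 4 chemokines that passed both filters, open circles are the 6 genes nearest to CXCL8, and dotted lines mark 2-fold. CXCL8 lies at 1.08 and -1.17, and CXCL1, CXCL2 and CXCL3 lie to the left of 0 on the horizontal axis.

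The chemokine cluster was also viewed with its neighbours on chromosome 4, from RASSF6 to BTC. Of 15 protein-coding genes, 7 passed the filter in the WT table, and 6 of these had a lower value in hypoxia, by any amount. The same held for 69.1% of all genes past the filter, so a lower value was common and nothing particular to the cluster is read from this count. Past CXCL2 lies EREG, which encodes the growth factor epiregulin, at 36.3 FPKM in WT hypoxia and 168 FPKM in WT normoxia, a log2 change of -2.18. MTHFD2L, a mitochondrial folate enzyme gene next to CXCL2, was at 5.41 FPKM in WT hypoxia and 10.81 FPKM in WT normoxia, or -0.88, and past the rule at -1.03 under TPM. Among the 7, CXCL8 alone was at least 2-fold higher in hypoxia as deposited and when centred, and none was under TPM. With shALKBH5, EREG was at 36.0 FPKM, against 49.0 FPKM with shScr, a log2 change of -0.43.

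**Figure D5:**
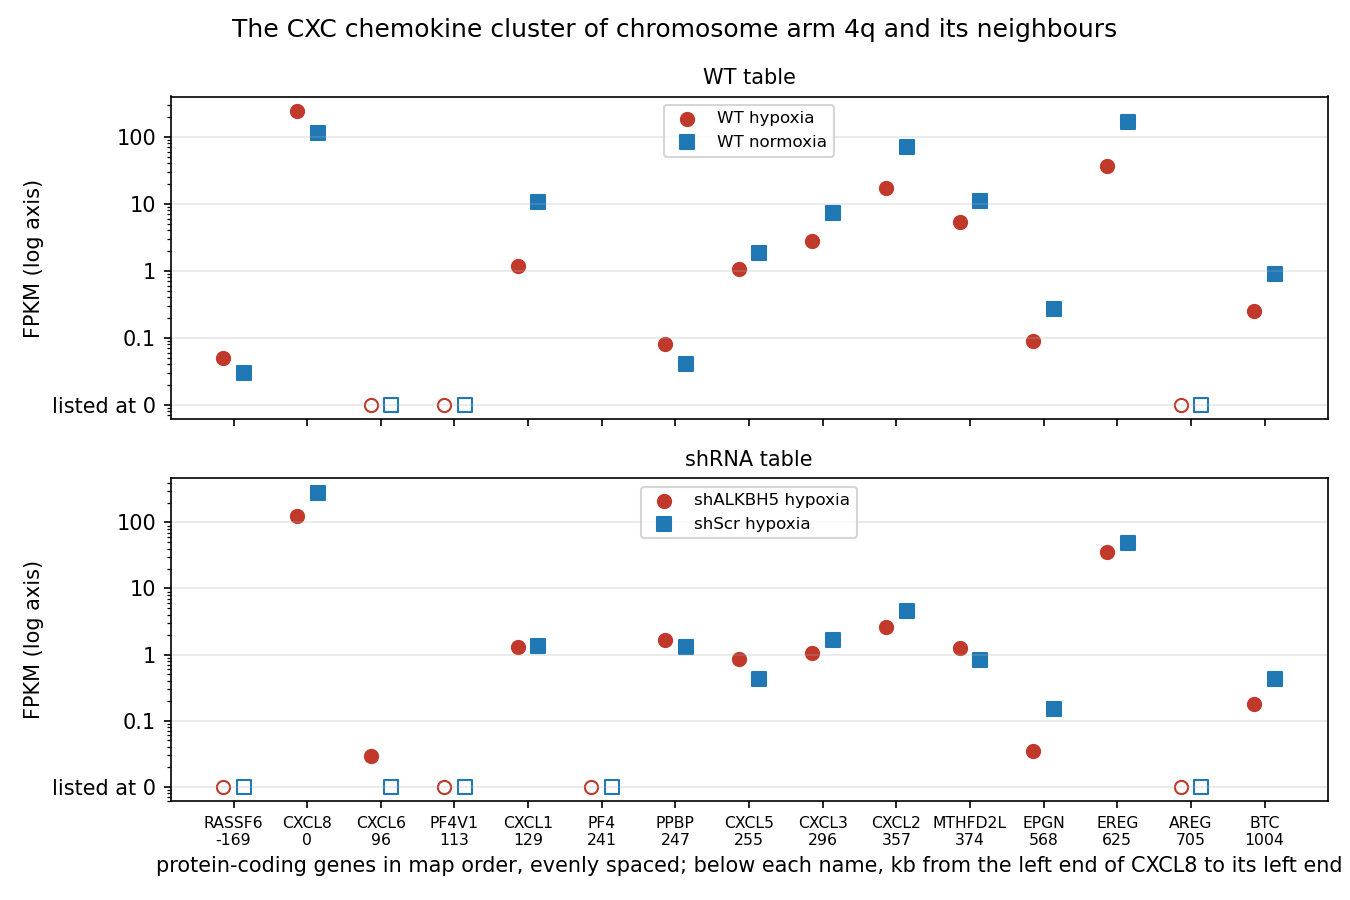
FPKM (log axis) of 15 protein-coding genes in map order, evenly spaced, with the distance of each gene's left end from that of CXCL8 in kilobases. Circles are WT hypoxia or shALKBH5, squares are WT normoxia or shScr, open symbols are listed at 0, and each symbol is 1 library. Among the 7 genes past the filter in the WT table, the hypoxia circle is above the normoxia square for CXCL8 and below it for CXCL1, CXCL2, CXCL3, CXCL5, MTHFD2L and EREG.

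The other CXC chemokines were scarce. None of the 10 in the WT table reached a mean of 1 FPKM. Among 11 in the shRNA table, 2 did and neither reached 2-fold, namely PPBP and CXCL14. CXCL14, which attracts other immune cells, had 3.10 FPKM with shALKBH5 and 5.28 FPKM with shScr. The interferon-induced CXCL9, CXCL10 and CXCL11 were listed at 0 in all 4 libraries. Of the receptors, CXCR1 and the scavenger ACKR1 were listed at 0 in all 4 libraries, and CXCR2 stood at 0.20 FPKM in WT hypoxia and 0.19 FPKM in WT normoxia. CXCR2 had 0 reads in both shRNA libraries, which allows up to 0.0586 FPKM with shALKBH5 and 0.0625 FPKM with shScr.

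Upstream of the chemokines, 18 inducing cytokines, receptors and adaptors were listed, of which 14 passed the filter in the WT table. In hypoxia 2 were higher and 2 lower, where 7.41% of all genes past the filter were higher and 14.7% lower. The split was 3 and 0 when centred (11.9% and 5.73% of all genes) and 2 and 3 under TPM (7.23% and 20.3%). The median of the listed genes was -0.12 beside -0.35 over all genes. IL1B, which encodes the strong chemokine inducer interleukin-1 beta, was at 1048 FPKM in WT hypoxia and 2435 FPKM in WT normoxia, a log2 change of -1.22 as deposited and -0.86 when centred. IL1A, which encodes interleukin-1 alpha, was at 7.25 FPKM in WT hypoxia and 1.76 FPKM in WT normoxia, a change of 1.58. TLR2, a receptor of microbial lipoproteins, was higher at 1.38, and IRAK2, a kinase of the interleukin-1 receptor pathway, was lower at -1.21, or -0.86 when centred. As deposited, IL1B was thus lower in hypoxia, as were CXCL1, CXCL2 and CXCL3, while CXCL8 was higher.

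With shALKBH5, the 11 of these genes past the filter had a median of -0.04, as had all genes. Among the 11, 1 was lower and 0 were higher, where 3.0% of all genes were lower and 1.76% higher. The gene was IRAK2, at 5.18 FPKM with shALKBH5 and 13.7 FPKM with shScr, a log2 change of -1.25 that stayed past 2-fold under each scaling. IL1B went the other way from CXCL8. It stood at 42.5 FPKM with shALKBH5 and 21.6 FPKM with shScr, a change of 0.94, just under the rule as deposited and past it under TPM (1.22) and total reads (1.11). Under TPM 5 of 15 listed genes were higher and 1 lower, where 8.39% of all genes were higher and 2.88% lower. With total reads 1 of 11 was higher and 1 lower, where these shares were 2.71% and 1.71%. The tables differed in this gene, since IL1B ranked 75th in WT hypoxia and 2212th with shScr. TNF, another inducer, stayed under 1 FPKM in every library.

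Of 13 regulators of CXCL8 transcription, 10 passed the filter in the WT table, with 1 higher and 2 lower in hypoxia. Over all genes 7.41% were higher and 14.7% lower. Among the regulators the split was 2 and 1 when centred (11.9% and 5.73% of all genes) and 1 and 3 of 12 under TPM (7.23% and 20.3%). Their median was -0.21, beside -0.35 over all genes. JUNB, an AP-1 subunit gene, was higher at 1.47, though it overlaps HOOK2 on the opposite strand and the use of strand is not given. NFKB1, which encodes the p50 subunit of NF-kB and its precursor, was lower at -1.31, or -0.96 when centred. SFPQ, an RNA-binding protein reported to repress CXCL8 transcription, was lower at -1.39. RELA, the NF-kB subunit that activates transcription, was at 117 FPKM in WT hypoxia and 71.5 FPKM in WT normoxia, or 0.70, and past the rule at 1.06 when centred.

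Among the same regulators with shALKBH5, 1 of 11 was higher and 2 were lower, where 1.76% of all genes were higher and 3.0% lower. Their median was -0.03, beside -0.04 over all genes. The split was 1 and 1 when centred (1.99% and 2.62% of all genes) and 1 and 1 of 12 under TPM (8.39% and 2.88%). With total reads it was also 1 and 1 (2.71% and 1.71%). SFPQ stood at 9.08 FPKM with shALKBH5 and 19.3 FPKM with shScr, a log2 change of -1.01 that fell under the rule at -0.97 when centred, -0.81 under TPM and -0.84 with total reads. HIF1A, the hypoxia-inducible factor subunit gene, was lower at -1.23, or -0.98 under TPM. NEAT1, the RNA scaffold of paraspeckles, which can hold SFPQ, was at 5.19 FPKM with shALKBH5 and 2.08 FPKM with shScr, a change of 1.01. NFKB1 had 109 reads with shALKBH5 and 293 with shScr, a log2 change of -0.98 that was past the rule at -1.07 under TPM. The interval of its read ratio, without the pseudocount, ran from -1.85 to -1.197. FOSL1, another AP-1 subunit gene, was at 223 FPKM with shALKBH5 and 145 FPKM with shScr, a change of 0.62. RELA was at 0.02, JUN at -0.03, which was above 0 under the other scalings, and CEBPB at 0.17.

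Factors that set the decay of AU-rich transcripts were all 10 past the filter in both tables. In hypoxia 0 were higher and 1 was lower, where 7.41% of all genes were higher and 14.7% lower. The median of the 10 was -0.55 beside -0.35 over all genes, and ZFP36 was also past the rule at 1.20 when centred. ZFP36L2, a decay factor of the tristetraprolin family, stood at 0.69 FPKM in WT hypoxia and 6.41 FPKM in WT normoxia, a change of -2.13. With shALKBH5, 1 was higher and 1 lower, where 1.76% of all genes were higher and 3.0% lower. The median was -0.48 beside -0.04 over all genes. Under the other scalings the split was 1 and 0. The shares of all genes were then 1.99% and 2.62% when centred, 8.39% and 2.88% under TPM, and 2.71% and 1.71% with total reads. ZFP36 encodes tristetraprolin, which binds AU-rich elements and promotes decay. It was at 45.2 FPKM with shALKBH5 and 19.5 FPKM with shScr, a log2 change of 1.17 with an interval from 1.07 to 1.35, and it stayed past 2-fold under each scaling. MAPKAPK2, a kinase that restrains tristetraprolin, was at 50.6 FPKM with shALKBH5 and 104 FPKM with shScr, a change of -1.02, or -0.98 when centred, -0.77 under TPM and -0.84 with total reads. Transcript half-lives were not measured.

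Other factors that act on neutrophils also differed in hypoxia. CSF3, which encodes granulocyte colony-stimulating factor, stood at 237 FPKM in WT hypoxia and 1095 FPKM in WT normoxia, a log2 change of -2.21. With shALKBH5 it had 45.9 FPKM, against 44.7 FPKM with shScr, and an interval from -0.06 to 0.14 on the deposited scale. The CSF3 change was 0.22 with total reads and 0.30 under TPM, and on those scales the interval lies above 0. MIF, a cytokine gene, was at 615 FPKM in WT hypoxia and 230 FPKM in WT normoxia, or 1.42. In the shRNA table MIF had only 11 reads with shALKBH5 and 23 with shScr. It ranked 10464th with shALKBH5 and 8620th with shScr, but 133rd in WT hypoxia. MIF-AS1, which overlaps it on the opposite strand, had 24 reads with shALKBH5 and 16 with shScr. The cause of the difference between the tables was not tested, and no change of MIF is read from the shRNA table. Of the 6 listed factors, 3 passed the filter in the WT table. In hypoxia 1 was higher and 1 lower, where 7.41% of all genes were higher and 14.7% lower. The split was 1 and 2 under TPM (7.23% and 20.3% of all genes). Among the same 6 in the shRNA table, 3 passed and none of them reached 2-fold, where 1.76% of all genes were higher and 3.0% lower. Under TPM 4 passed and with total reads 2 did, again with none at 2-fold.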

How the data were processed

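Per the file headers, the authors deposited FPKM values in 2 gene tables with 1 library in each column. The tables were treated as normalised separately, so changes were taken within a table. The submitters' processing notes name hg19, while 58724 of 58735 rows of the shRNA table had the gene starts and ends of GENCODE 29, so its coordinates are given as GRCh38. No source used here gives the aligner, the counting tool or whether strand was used. Of 18964 rows for WT cells, 65 had a date or a bare number as symbol and were left out. For the shRNA cells, multiplying FPKM by gene length gave whole reads for 100% of values (tolerance 0.01 read). Of rows that repeat a symbol the one with the highest mean was kept.

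Changes were differences of log2(FPKM + 1), with a filter of 1 FPKM and a rule of 2-fold. Intervals were 95% exact and reads are not independent molecules, so they cover counting error only. Floors are 3 reads. Named genes were the 6 chemokines, list members past the rule or named for their level, and the 6 genes nearest to CXCL8. Genes named from the lists that did not pass the rule were chosen for their role after their values were seen. The 6 members and the lists were chosen with earlier results of these data known. Alternatives were a pseudocount of 0.1, no filter or 5 FPKM, centring, TPM, summed rows, thresholds of 1.5-fold and 3-fold, total recovered reads and at least 50 reads. The size rule was tested on simulated data. The tools were scipy 1.17.1, pandas 2.3.3 and numpy 2.4.6 in Python 3.11.15, with figures by matplotlib 3.10.9.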

Additional observations from a re-analysis of the deposited data

How the results depend on the processing

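The CXCL8 change fell under the threshold with TPM (0.98 in hypoxia, -0.91 with shALKBH5), with total recovered reads (-0.99 with shALKBH5) and at 3-fold, where the values of 1.08 and -1.17 are the same. In hypoxia 0 members were higher with TPM and at 3-fold, in place of 1. With shALKBH5 the count lower was 0 with TPM, total reads and at 3-fold and 2 at 1.5-fold, in place of 1. CXCL1 with shALKBH5, at -0.02, turned to 0.0163 when centred, 0.18 with TPM and 0.0782 with total reads. The cause was not tested, beyond the scale shifts and thresholds that these settings apply. No paired analysis was possible because each group holds 1 library, and for the same reason no library could be left out. The depth limits CXCL1, CXCL3, CXCL5 and CXCL6 in the shRNA table.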
